A study of Homo sapiens with 3 samples.

Results

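Genes of extracellular signal-regulated kinase (ERK) feedback and of the immediate early response were examined for sites bound by MECOM, a zinc finger transcription factor of blood stem cells that is overexpressed in some myeloid leukaemias. The 32 genes were chosen by symbol, and their peaks were those that the annotated peak table of wild-type MECOM assigned to that symbol. Of the 32 genes, 7 were assigned a peak, with 8 peaks among the 3462 of the table. Chromatin immunoprecipitation with sequencing (ChIP-seq) was done in HEK293T, a human embryonic kidney line, so binding was measured from an introduced protein in cells of non-blood origin. The 3 libraries came from cells given MECOM-WT, MECOM-R750W or the empty pMYS-IG vector, with 1 library in each group, and the antibody recognised the AM tag. The table used here is that of MECOM-WT, and peaks of R750W and vector cells were not analysed here. Therefore no value has a replicate, no p-value is given, and the signal of the tag antibody at these genes in vector cells was not examined.

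ERK is the last kinase of the cascade that runs from growth factor receptors through RAS, RAF and MEK. When it is activated, transcription factors bound near early genes are phosphorylated and those genes are transcribed within minutes, before any protein is made. Some of the products are transcription factors that drive later genes, and others switch the cascade off again: dual-specificity phosphatases (DUSPs) remove the activating phosphates from ERK, and Sprouty (SPRY) and SPRED proteins restrain signalling at the level of the receptor and RAS.

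Of the 7 genes with an assigned peak, 5 encode inhibitors of the cascade. In the deposited table, 2 of 5 ERK phosphatases were assigned a peak (DUSP1 and DUSP5), as were 3 of 6 inhibitors of RAS signalling (SPRED1, SPRED2 and SPRY2) and 2 of 9 immediate early factors (EGR1 and MYC, the last with 2 peaks). No peak was assigned to the 3 ETS factors ETV1, ETV4 and ETV5, which respond to ERK, or to the 4 ligands HBEGF, EREG, AREG and LIF. None was assigned to the ephrin receptors EPHA2 and EPHA4, the urokinase receptor PLAUR, or PHLDA1 and PHLDA2. The 7 of 32 genes made 21.9% (exact 95% binomial interval 9.28 to 40.0), beside 9.94% of 20037 protein-coding genes assigned a peak in the same table. The interval covers counting error only, and the genes were chosen with earlier results of these data known, so the higher share is a description of the list.

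A further 4 peaks lay inside or across the start of 3 of the genes but were assigned to Ensembl genes without a symbol. They were at DUSP6, PHLDA1 and EPHA4, so that 10 of the 32 genes had a peak assigned or inside, and 12 peaks in all. No share of protein-coding genes by this combined rule stands beside that count, and the shares by either rule alone are not its counterpart. Counted by overlap with the RefSeq gene span alone, 5 of 32 genes had a peak, beside 11.4% of protein-coding genes. With the span widened by 1000 bp the count was 10 of 32 (31.2%, 16.1 to 50), beside 13.7% of protein-coding genes. The genes are short, with a median length of 8008 bp beside 24115 bp for protein-coding genes. In 7 of the 10 genes the peak lay upstream of or across the outermost RefSeq start, and in MYC, DUSP6 and EPHA4 it lay inside the gene.

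The sequences under peaks that reach into the 250 bases upstream of a RefSeq gene start are shown first, because they are the bases near the start that lie inside the peaks. The DUSP5 peak also reached into those bases, but no promoter window of DUSP5 was held, so its sequence is not shown. All are from RefSeq on GRCh38.p14, read 5′ to 3′ on the strand of the gene, and end at or before the base upstream of the gene start. Capitals mark matches to the motifs searched, which are spelled out with the motif counts. The stretches of SPRED1 and SPRED2 hold no match. The first is SPRY2 at chr13:80341127-80341376 on the minus strand, with all 250 bases inside the peak. The second is PHLDA1 at chr12:76031777-76032014 on the minus strand, with 238 bases. The third is SPRED1 at chr15:38252586-38252803 on the plus strand, with 218 bases that stop 33 bp short of the RefSeq start. The fourth is SPRED2 at chr2:65432755-65432849 on the minus strand, with 95 bases that stop 156 bp short of the start.
SPRY2: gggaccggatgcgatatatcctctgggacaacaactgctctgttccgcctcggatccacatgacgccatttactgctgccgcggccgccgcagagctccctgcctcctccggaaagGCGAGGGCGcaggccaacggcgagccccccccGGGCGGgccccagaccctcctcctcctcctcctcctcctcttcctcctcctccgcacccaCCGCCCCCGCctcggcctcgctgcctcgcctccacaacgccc
PHLDA1: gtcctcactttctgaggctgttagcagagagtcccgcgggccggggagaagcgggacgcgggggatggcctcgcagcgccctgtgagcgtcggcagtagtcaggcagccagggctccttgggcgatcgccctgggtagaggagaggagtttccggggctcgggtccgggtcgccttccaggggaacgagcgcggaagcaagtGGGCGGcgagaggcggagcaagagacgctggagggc
SPRED1: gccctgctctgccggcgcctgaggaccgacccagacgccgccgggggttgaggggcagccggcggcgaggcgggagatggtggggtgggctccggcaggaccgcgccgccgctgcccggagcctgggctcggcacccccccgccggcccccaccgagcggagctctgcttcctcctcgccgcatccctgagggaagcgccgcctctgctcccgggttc
SPRED2: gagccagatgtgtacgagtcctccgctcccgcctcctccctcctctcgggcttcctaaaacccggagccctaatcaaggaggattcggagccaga

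Among the phosphatases, peaks lay upstream of DUSP1 and DUSP5 and inside DUSP6. DUSP1 encodes a nuclear phosphatase of mitogen-activated protein kinases and is itself an immediate early gene. Its peak, chr5:172771995-172772418, lay 800 to 1223 bp upstream of the gene start and so did not reach the 250 bases next to it. Enrichment was 4.72-fold (95% Poisson interval 2.93 to 7.23), from 19 fragments over a background of 3.24 fragments. Fold here was taken to be the peak caller's ratio of fragments to local background, with 1 added to each. The fragments are those at the peak's highest point, and the interval covers counting error in the fragments with the background held fixed. The peak overlapped LOC105377730, a long non-coding RNA gene that spans 172772211 to 172782334.

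DUSP5 encodes a nuclear phosphatase specific for ERK. Its peak, chr10:110497462-110497739, ended 168 bp upstream of the RefSeq start and 99 bp upstream of the start in the table's own annotation. It reached 4.86-fold (3.26 to 6.99) with 27 fragments over a background of 4.76. The gene of DUSP5-DT, a divergent long non-coding transcript, lay 980 bp from the peak. DUSP6, which encodes the cytoplasmic ERK phosphatase, had a peak from 370 to 820 bp downstream of its start, at chr12:89351681-89352131. That peak had 5.09-fold enrichment (2.88 to 8.45) with 13 fragments over 1.75. The table gave it to ENSG00000274021, an unnamed gene on the opposite strand from 89351015 to 89353271, and it also lay inside the read-through gene POC1B-DUSP6. DUSP2 and DUSP4, which encode nuclear phosphatases of the same family, had no peak near them: the closest to DUSP2 was 176323 bp away and the closest to DUSP4 442353 bp.

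Among the inhibitors of RAS signalling, the peaks of SPRED1 and SPRED2 lay just upstream of the start and that of SPRY2 lay across it. SPRED1 and SPRED2 bind the RAS inhibitor neurofibromin and bring it to the membrane. The SPRED1 peak, chr15:38252069-38252803, was 735 bp wide, wider than or as wide as 86.5% of peaks, and reached 5.93-fold (3.48 to 9.55) with 15 fragments over 1.70. It had the highest fold of the 8 assigned peaks, at rank 654 of 3462. Its background was the lowest value in the list, which 422 peaks shared. The table counted this peak as spanning the gene start, because its annotation puts the start at 38252326, 510 bp upstream of the RefSeq start at 38252836. The SPRED2 peak, chr2:65432755-65433026, was narrow at 272 bp and reached 4.98-fold (2.82 to 8.26) with 13 fragments over 1.81. It lay 156 to 427 bp upstream of the outermost SPRED2 start, and the other RefSeq start, within the gene, was 65977 bp away. SPRED3 had no peak closer than 284760 bp.

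SPRY2 encodes a Sprouty protein that dampens receptor tyrosine kinase signalling, and its peak was the widest of the 12. It ran over 1159 bp, chr13:80340395-80341553, from 427 bp upstream to 731 bp downstream of the outermost start, and was the 85th widest of the list. It had the most fragments of the 12 peaks, 32, and also the highest background, 10.1, which ranked 49th of 3462. Its enrichment was therefore the lowest, at 2.98-fold (2.07 to 4.17), and the interval lay wholly below the list's median of 4.82. Of the 8 assigned peaks it was the only one whose interval did not hold that median. The 2 inner SPRY2 starts lay 287 and 736 bp downstream of the peak. The peaks closest to SPRY1 and SPRY4 lay 474211 and 628084 bp away.

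**Figure D1:**
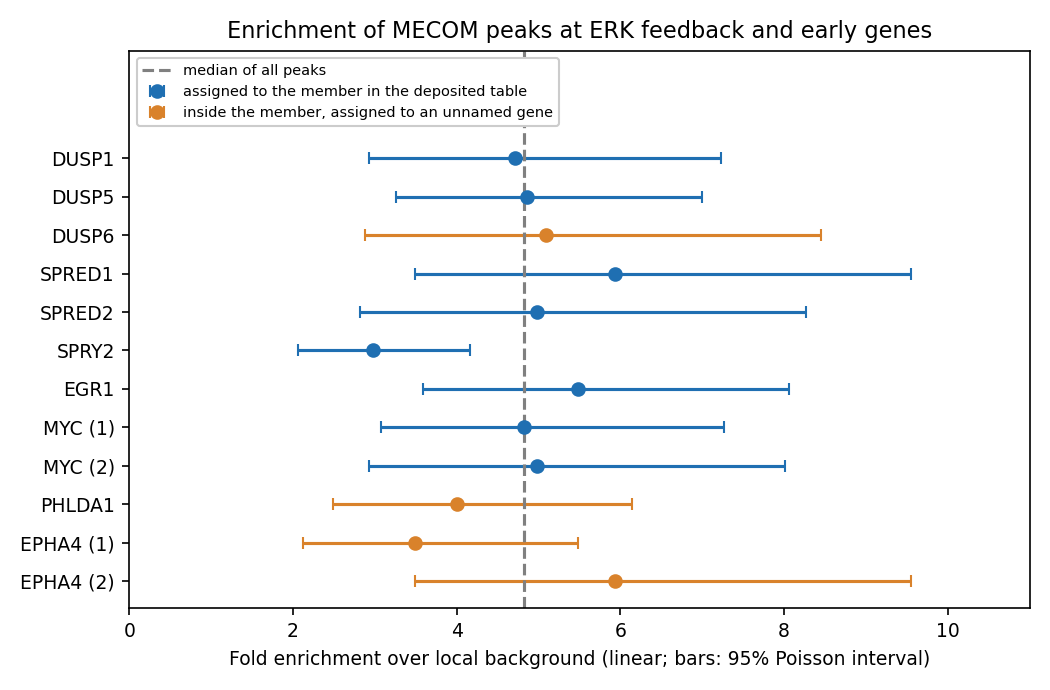
Fold enrichment over local background (linear axis) of the 12 peaks assigned to or inside the genes, 1 library, with bars for the exact 95% Poisson interval of the fragments and a dashed line at the median of all 3462 peaks, 4.82. SPRY2 (2.98-fold) is the only peak whose interval does not reach the line; MYC and EPHA4 have 2 peaks each, numbered from the gene start.

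Among the immediate early factors, EGR1 had a peak upstream of its start and MYC a pair inside the gene. EGR1 encodes a zinc finger transcription factor induced by serum through SRF (serum response factor) and its ETS partners. Its peak, chr5:138464117-138464516, lay 963 to 1362 bp upstream of the RefSeq start. It reached 5.49-fold (3.59 to 8.06) from 24 fragments over 3.56, and its −log10 q of 8.35 was the highest of the 12 peaks and ranked 605th of 3462. EGR2, EGR3 and EGR4, which encode related zinc finger factors, had none: the nearest peaks lay 645749, 3689898 and 57024 bp away. The bases next to the EGR1 and DUSP1 starts lay outside the peaks and are shown for that contrast, at chr5:138465229-138465478 on the plus strand and chr5:172771196-172771445 on the minus strand. Capitals again mark motif matches. They include a pair of SRF CArG boxes in EGR1, from 105 to 96 and from 83 to 74 bases before the start, and a cyclic AMP response element (CRE) in DUSP1, from 125 to 118 bases before it. In both genes these letters lay close to the start while the peak lay further upstream. The bases under the EGR1 and DUSP1 peaks were not held, so they were not searched for motifs.
EGR1: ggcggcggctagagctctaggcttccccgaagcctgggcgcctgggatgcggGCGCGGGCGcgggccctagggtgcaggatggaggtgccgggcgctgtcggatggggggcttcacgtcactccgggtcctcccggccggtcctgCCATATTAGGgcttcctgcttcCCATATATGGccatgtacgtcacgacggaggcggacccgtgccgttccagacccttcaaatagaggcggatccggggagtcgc
DUSP1: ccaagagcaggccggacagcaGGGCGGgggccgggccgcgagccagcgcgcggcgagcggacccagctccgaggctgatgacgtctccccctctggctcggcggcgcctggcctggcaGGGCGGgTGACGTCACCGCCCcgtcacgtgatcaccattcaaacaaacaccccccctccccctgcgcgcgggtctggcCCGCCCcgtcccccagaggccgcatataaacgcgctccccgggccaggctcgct

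MYC encodes the growth-promoting transcription factor of that name and was the only one of the 7 genes with more than 1 assigned peak. Both of its peaks lay on chromosome 8 inside the gene, from 127736351 to 127736848 and from 127737118 to 127737531, and were 269 bp apart. The first lay 917 to 1414 bp and the second 1684 to 2097 bp downstream of the start. They reached 4.83-fold (3.07 to 7.26, 21 fragments) and 4.98-fold (2.93 to 8.02, 15 fragments), and the intervals overlapped almost wholly. The remaining early factors had no peak closer than 41860 bp.

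PHLDA1 encodes a pleckstrin homology-like protein induced by growth factors. A peak at chr12:76031472-76032014 lay across its RefSeq start, from 238 bp upstream to 304 bp downstream, and reached 4.01-fold (2.49 to 6.14) with 19 fragments over 3.99. The table gave it to ENSG00000257839, whose start lay 644 bp from the peak's nearer end. PHLDA1-DT, a divergent long non-coding transcript whose gene spans 76031813 to 76034389, overlapped the peak. PHLDA2, a related gene, had no peak closer than 244979 bp. EPHA4, an ephrin receptor tyrosine kinase, had 2 peaks near its first start, both given to ENSG00000272944, a gene on the opposite strand from 221572506 to 221574454. The peak at chr2:221573076-221573337 had 3.49-fold enrichment (2.12 to 5.48, 17 fragments) and lay between the gene's 2 RefSeq starts, 865 to 1126 bp downstream of the outer and 772 to 1033 bp upstream of the inner. The peak at chr2:221570591-221571078 reached 5.93-fold (3.48 to 9.55, 15 fragments) and lay 1226 to 1713 bp downstream of the inner start. The cause of the table's choice of gene at these peaks was not tested.

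**Figure D2:**
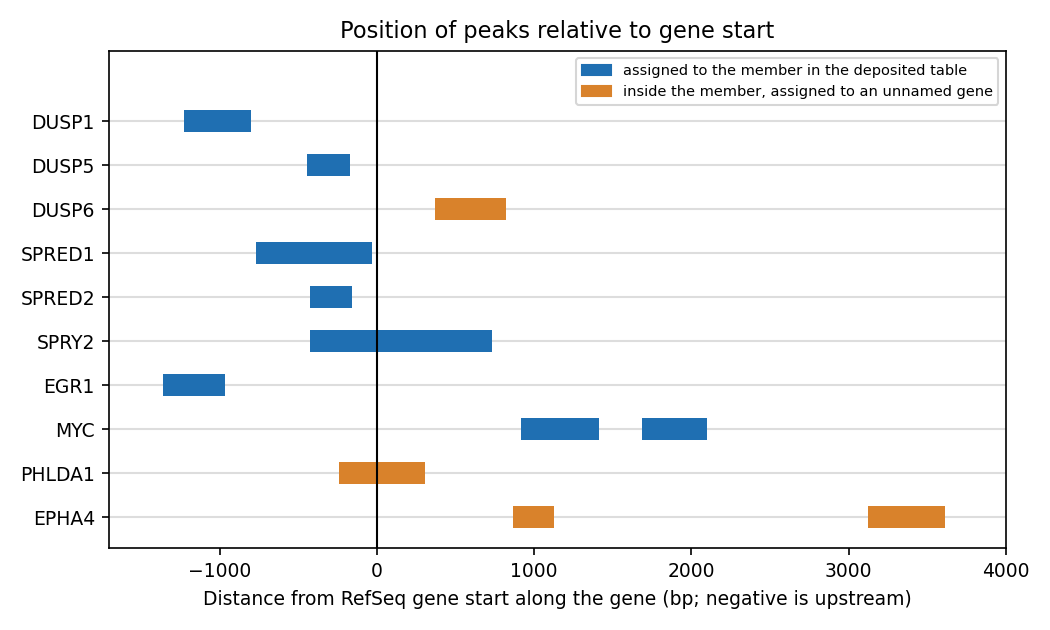
Extent of the 12 peaks relative to the outermost RefSeq gene start (horizontal axis in bp along the gene, negative upstream), 1 row per gene, with peaks assigned to the gene in blue and peaks assigned to an unnamed gene in orange. Of the 12 peaks, 5 lie wholly upstream, 2 (SPRY2 and PHLDA1) lie across the start and 5 lie inside the gene.

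The peaks of these genes were of ordinary height. The 8 assigned peaks had a median fold of 4.92 (range 2.98 to 5.93), beside 4.82 for all 3462 peaks, and a median of 20 fragments beside 18. Median background was 3.40 fragments beside 2.92, and median width 419 bp beside 414 bp. None of the 8 intervals lay wholly above the list's median, 1 lay wholly below it and 7 held it. Of all 3462 peaks, 189 had an interval above, 162 below and 3111 holding it, so most intervals held the median in both sets. Among the 12 peaks, the intervals of all 66 pairs overlapped, which does not show that the folds were equal. The closest to separating were those of EGR1, with a lower bound of 3.59, and SPRY2, with an upper bound of 4.17. Ranks by fold ran from 654 to 3377.

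**Figure D3:**
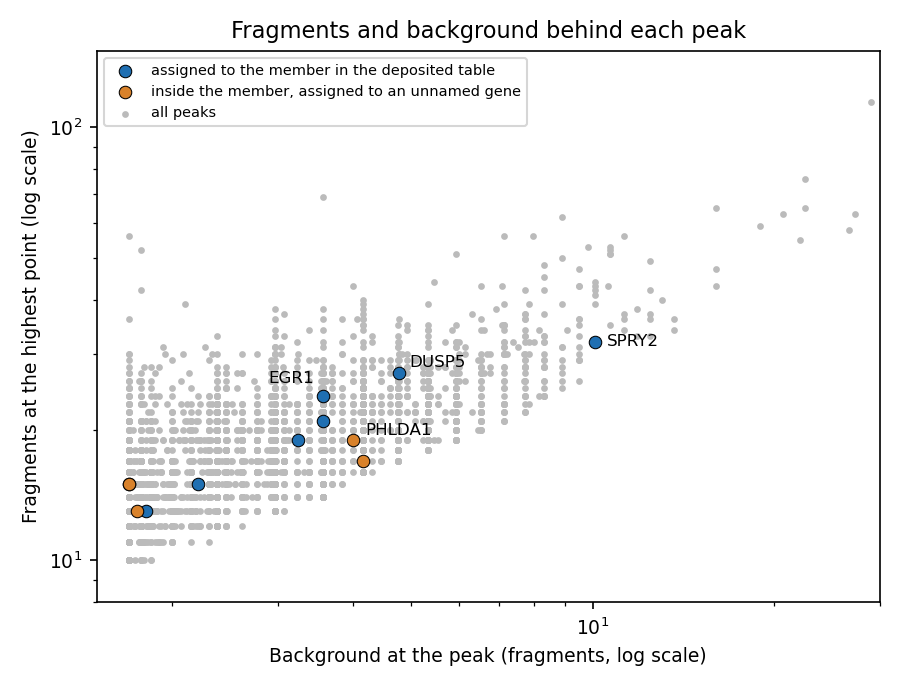
Fragments at the highest point against background (both in fragments, log scales) for each peak, with the 12 peaks at or inside the genes coloured and all peaks in grey; 20 peaks with a background above 30 or more than 150 fragments are not drawn. SPRY2 has the most fragments (32) and the highest background (10.1) of the 12, and the rest lie among the bulk of the list; SPRED1 and 1 EPHA4 peak coincide at 15 fragments over 1.70.

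Of the 8 assigned peaks, 6 began within 1000 bp of the gene start (75%, exact 95% binomial interval 34.9 to 96.8), beside 55.7% of all 3419 peaks with an annotated gene. All 8 began within 5000 bp, beside 74.3% of annotated peaks. This distance is the table's own and runs to the peak's lowest coordinate, which is the edge away from the start for EGR1 and the near edge for DUSP1. By the table's classes, 4 of the 8 lay upstream, 2 across the start and 2 inside, beside 27.8%, 19.4% and 40.4% of annotated peaks. Against RefSeq starts, SPRED1 moves to the upstream class, which leaves 5 upstream, 1 across the start (SPRY2) and 2 inside (both MYC).

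For the 22 genes with no peak assigned or inside, the nearest peak lay from 41860 to 3689898 bp away. Over all 32 genes, 16 (50%) had a peak within 100 kb, beside 39.9% of 20037 protein-coding genes. Of the 22 genes, 6 had a peak within 100 kb. The closest were near IER5, an immediate early gene (41860 bp, 4.59-fold), LIF, which encodes a cytokine of the interleukin-6 family (42458 bp, 3.73-fold), and HBEGF, which encodes a ligand of the epidermal growth factor receptor (53551 bp). By the deposited assignment these peaks belonged, in turn, to other genes: LINC01732, CASTOR1 and ENSG00000249637. The peak near HBEGF had a higher fold than any of the 12, at 8.56-fold (6.12 to 11.7) with 38 fragments, and its interval lay wholly above the list's median. The other genes without a peak were DUSP2, DUSP4, SPRY1, SPRY4, SPRED3, ETV1, ETV4, ETV5, EGR2, EGR3, EGR4, IER2, IER3, PHLDA2, FOSL1, EPHA2, EREG, AREG and PLAUR. Over all 32 genes the median distance to the nearest peak was 89823 bp, beside 162390 bp for protein-coding genes. Every peak of the list had at least 10 fragments and a −log10 q of at least 2, so a gene without a listed peak is not thereby shown to be unbound.

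**Figure D4:**
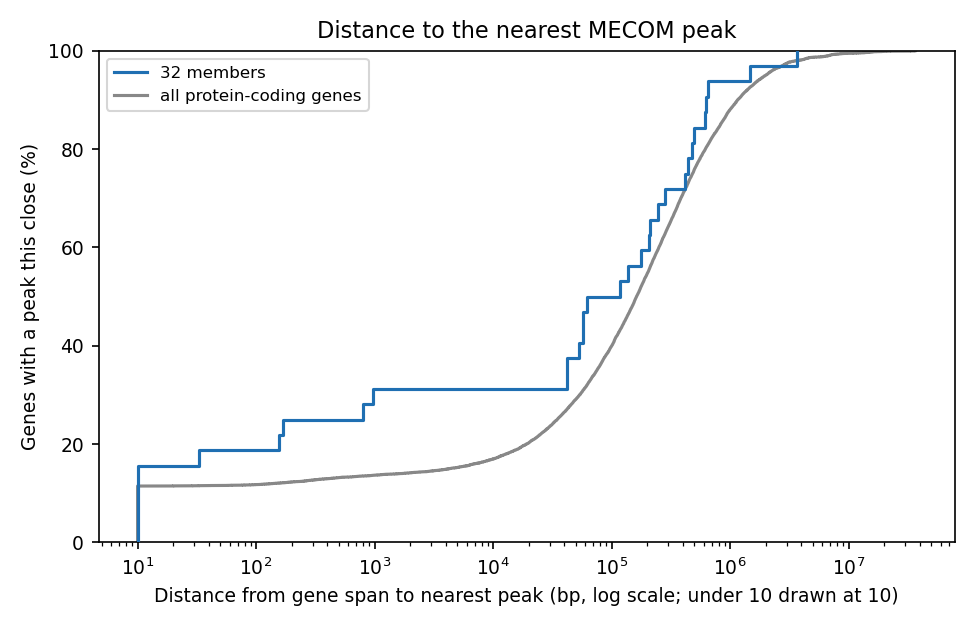
Share of genes (vertical axis, %) with a peak within a given distance of the RefSeq gene span (horizontal axis, bp, log scale), for the 32 genes in blue and 20037 protein-coding genes in grey. The blue line reaches 31.2% by 1000 bp, where the grey line is at 13.7%, then stays level until 41860 bp.

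Motifs were searched in RefSeq promoter windows, each 250 bases before to 50 after a gene start. Windows were held for 22 of the 32 genes, 35 windows in all, since some genes have several starts. The motifs, read on both strands, were AGATAA (the GATA-type core bound by the first zinc finger domain of MECOM), GAAGATGAG (its second domain), CCGGAAG (ETS factors), TGANTCA (AP-1), TGACGTCA (CRE), GCGNGGGCG (EGR factors), GGGCGG (the GC box) and the SRF CArG box. Matches to GCGNGGGCG and GGGCGG can overlap, as they do in SPRY2. A match describes the letters and not a bound site.

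The GATA-type core occurred in 1 of the 35 windows (EGR2), beside 7.91% of all 22199 windows of protein-coding genes, and GAAGATGAG in 0 of 35, beside 0.275%. The ETS motif occurred in 2 windows (IER2 and SPRY1), beside 12.8%, and the AP-1 motif in 3 (PLAUR, SPRED2 at its inner start, and SPRED3), beside 6.15%. The CRE occurred in 3 windows (AREG, DUSP1 and EPHA2), beside 2.26%, and the CArG box in 2 (EGR1 and EGR2), beside 1.25%. The EGR motif was in 8 of the 35 windows, beside 12.1%, and the GC box in 23, beside 56.3%. Of the 35 windows, peaks reached 4, those of SPRY2, PHLDA1, SPRED1 and SPRED2. DUSP5 and MYC, which also had assigned peaks, were among the genes without a window. None of the 4 windows held the GATA-type core, GAAGATGAG, the ETS, AP-1 or CRE motif or the CArG box. The windows covered only part of each peak: 300 of 1159 bases in SPRY2, 288 of 543 in PHLDA1, 218 of 735 in SPRED1 and 95 of 272 in SPRED2. The other bases under these peaks were not searched, so the peaks are not shown to lack these motifs. All 4 windows held a GC box, and in SPRY2 and PHLDA1 it lay inside the peak. The SPRY2 window also held 2 EGR motifs inside its peak. Guanine and cytosine made up 71.0%, 69.3%, 76.3% and 60% of the SPRY2, PHLDA1, SPRED1 and SPRED2 windows, beside a median of 62.3% in all windows and 66.3% in the 1264 windows that any peak touched.

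Some other genes of the pathway had higher peaks. Of 92 further genes, 17 were assigned a peak (18.5%, exact 95% binomial interval 11.1 to 27.9), beside 9.94% of protein-coding genes. Their 20 peaks had a median fold of 4.35, beside 4.82 for all 3462 peaks. Of the 20, 5 had an interval wholly above the list's median, beside 189 of the 3462. Both EPHA3 peaks were among the 5. In the RAS-ERK cascade 7 of 25 genes were assigned peaks, and in AP-1 3 of 8. Of other dual-specificity phosphatases 2 of 8 had one, of other immediate early genes 3 of 16, of SRF-related and CREB factors 1 of 7, and of ligands and receptors 1 of 21. Other feedback and family members, such as SPRY3 and ERRFI1, had 0 of 7.

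EPHA3, an ephrin receptor, had the highest of the peaks assigned to these genes, 11.1-fold (7.57 to 15.8, 29 fragments) inside the gene, and another of 9.27-fold (6.07 to 13.6) across its start. RASA1, which encodes a GTPase-activating protein that turns RAS off, reached 10.0-fold (6.67 to 14.5), 24 to 408 bp upstream of its start. These 3 peaks shared the lowest background of the list, 1.70 fragments. DUSP10, a phosphatase of the stress kinases p38 and JNK, reached 8.64-fold (5.61 to 12.8) from 84 to 510 bp inside the gene and had another peak of 3.32-fold upstream. SOS1, the exchange factor that loads RAS with GTP, reached 7.74-fold (4.92 to 11.6) inside the gene. FOS, the AP-1 subunit that shares SRF control with EGR1, had a peak 1194 to 1734 bp upstream (6.54-fold, 4.07 to 10.0). That places it, like the peaks of EGR1 and DUSP1, upstream of the bases next to the start. BATF3 (5.84-fold) and the scaffold gene KSR2 (5.58-fold) followed, and JUN, the partner of FOS, had a peak across its start (4.66-fold, 3.03 to 6.90). KLF10 (4.54-fold), DUSP16 (4.17-fold), the ERK-activated kinase gene MKNK2 (4.17-fold) and the adaptor gene SHC1 (4.13-fold) completed those named by fold.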

How the data were processed

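The submitters' processing notes name hg38, Bowtie2 2.4.2, MACS2 2.1.1.20160309.6 and ChIPseeker 1.18.0, with no role or order. The sources used here do not state the sequencing depth. The deposited table has 3465 lines without a header, of which 3 repeat a peak, and was taken as that of MECOM-WT from its name. The deposited fold enrichment was taken to be the authors' ratio of fragments to local background, with 1 added to each. Significance was deposited by the authors as −log10 of the p-value and of the q-value, the last at least 2.00. The deposited score was 10 times that of q, cut to a whole number, in every line. Columns tied to no sample numbered 0.

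Fragments and background were recovered for all 3462 peaks as the 1 pair that returned both the deposited fold, with 1 added above and below, and the deposited p from a Poisson tail with a whole number of fragments (−log10 p within 0.001, or within a share of 1e-05 above 1000). The recovery was tested on simulated data made with the same formula. That checks the calculation and cannot show that the peak caller used this formula. The simulated fragments and backgrounds did not reach the highest values of the list. Gene spans and promoter windows came from RefSeq on GRCh38.p14, the same primary assembly as hg38; 2236 of 2286 table symbols matched, 34 through an older name, and all 32 genes matched. The span-only count and the median with unassigned peaks were added after seeing the data. The gene lists, motifs and the rule for named genes were chosen with earlier results of these data known. The rule took every gene with an assigned peak, the 6 nearest without one, and up to 12 pathway genes by fold. With 1 library there was no test. Python 3.11.15, pandas 2.3.3, numpy 2.4.6, scipy 1.17.1 and matplotlib 3.10.9 were used.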

Additional observations from a re-analysis of the deposited data

How the results depend on the processing

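The count of genes with an assigned peak, 7, was 5 to 10 in the settings other than peaks across the start, where it was 2; that setting keeps only part of the peaks. The settings were a q of at most 1e-05 (5), fold at or above the median (5), merged neighbours (7), a start within 1000 or 10000 bp (6 and 7), and RefSeq spans without widening (5), widened by 1000 or 10000 bp (10 and 10) or holding at least 50% of the peak (8). No share of protein-coding genes stands beside the counts by q, by fold or with merged neighbours, so those counts cannot be set against the list. Beyond 1000 bp of widening no further gene was added. The share of protein-coding genes rose from 13.68% to 16.96% between these widths, so the gap to the 31.25% of the 32 genes narrowed. With at least 50% of the peak in the span widened by 1000 bp, the shares were 25% of the 32 and 13.46% of protein-coding genes. They were 18.75% and 7.06% for a start within 1000 bp, and 21.88% and 9.15% within 10000 bp. For peaks across the start they were 6.25% and 2.38%. The count of other pathway genes, 17, was 10 at a q of at most 1e-05, which keeps fewer peaks, and 15 and 12 with the widened and plain spans. The median fold of 4.92 was 6.32 with no count added to fragments and background, as was that of all peaks (6.32), and 4.86 to 4.98 in the other settings. The share of peaks within 1000 bp of the start, 75%, was 100% within 5000 bp, by construction no smaller, and 37.5% within 500 bp, 50% by the middle of the peak and 80% at the stricter q. By −log10 q in place of fold, 6 of 12 ranks moved by over 1.5 times, among them DUSP5 (673 by q, 1641 by fold) and SPRED1 (1280 by q, 654 by fold). On the sense strand alone the EGR motif was in 5 genes, the ETS motif in 1 and the GATA-type core in 0. No paired analysis was possible because the peaks come from 1 library and no group has another. The 13 to 32 fragments per peak gave wide intervals, which limits any ranking of these genes, and the enrichment of vector and R750W cells was not examined.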

Other observations

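Across the whole list, promoter windows touched by a peak differed in base content from all windows. Of 1264 touched windows 74.5% held a GC box, beside 56.3% of all 22199 windows, and 4.27% held the GATA-type core, beside 7.91%. The ETS motif was in 16.3% of touched windows beside 12.8% of all, the EGR motif in 16.1% beside 12.1%, and the CRE in 3.48% beside 2.26%. Median GC content was 66.3% in touched windows beside 62.3% in all. Touched windows need not lie wholly inside a peak, so a motif in them can lie outside it. In the 294 windows wholly inside a peak the CRE was in only 2 (0.68%), a share below that of all windows. The GC box, ETS and EGR shares of those 294 stayed above those of all windows, and the GATA-type share stayed below. The touched windows are part of all windows, and the part of base content in the motif shares was not tested.

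Among the ephrin receptor genes listed, EPHA4 and EPHA3 each had a pair of peaks within the gene or across its start. EPHA2 had none closer than 211667 bp, and EPHA1, EPHA5, EPHA7, EPHB2 and EPHB4 had none assigned or overlapping the gene. The pair of EPHA4 was chosen for mention after its values were seen, since the deposited assignment does not name the gene.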
